A study of Mus musculus with 4 samples.

Results

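The aldo-keto reductases described here are 7 genes read in the tumour cells of mouse lungs: Akr1c18, Akr1c12, Akr1c13, Akr1b7, Akr1b8, Akr1b3 and Akr1a1. They are 7 of 31053 genes in the deposited feature table, and were picked by name with earlier results of these data known. Akr1c18 was among the genes already seen to stand apart in the knockout tumour cells under IgG, so the values below describe the members and carry no test. Tumour cells were taken as cells with at least 5 unique molecular identifiers (UMIs, each standing for 1 captured RNA molecule) of Krt8 and Krt18 together and at most 1 UMI of Ptprc. Krt8 and Krt18 encode the keratins of simple epithelia, and Ptprc encodes the leukocyte surface protein CD45. This gate held 465 of 23360 kept cells.

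There were 4 single-cell libraries, KO or WT crossed with anti-PD-1 or IgG, and no group had a replicate. In all of them KP cells, a mouse model of non-small-cell lung cancer, had been given by vein to B6 mice. KO anti-PD-1 and KO IgG came from lungs with KP cells knocked out for Asf1a, a chaperone for histones H3 and H4. WT anti-PD-1 and WT IgG came from lungs with KP cells wild type for Asf1a. Anti-PD-1 blocks an inhibitory receptor of T cells and was given at 200 µg per mouse, 3 times a week, for 1 week. The IgG groups received an isotype antibody. The host mice were B6 in every group, so only the injected cells differed in Asf1a. The labels name neither the number of mice behind a library, nor their age, nor the number of KP clones. Every difference below is therefore one between 2 libraries, and it cannot be told apart from differences between mice, clones or preparations. Intervals are 95% and cover counting error only.

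Aldo-keto reductases are soluble enzymes that use NADPH to reduce aldehydes and ketones, among them sugars, lipid aldehydes, steroids and prostaglandins. The Akr1b subfamily holds aldose reductase and its relatives, the Akr1c subfamily holds the hydroxysteroid dehydrogenases, and Akr1a1 is the general aldehyde reductase. Several members are known as targets of the oxidant-sensing transcription factor Nrf2, and some human relatives are abundant in non-small-cell lung cancer.

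The genes of each subfamily lie side by side in the RefSeq gene order of the mouse. On chromosome 13 the order is Akr1c18, Akr1c13, Akr1c19 and Akr1c12, and on chromosome 6 it is Akr1b3, Akr1b8, Akr1b10 and Akr1b7, with only pseudogenes and noncoding genes between them. Akr1c18 on one side and Akr1c13 and Akr1c12 on the other differed in opposite directions between KO and WT tumour cells, as described below, and their promoters are shown for that reason. The sequences are the 250 bases before each start site from RefSeq (GRCm38.p6), at chr13:4190937-4191186 on the plus strand for Akr1c13, chr13:4279400-4279649 on the minus strand for Akr1c12 and chr13:4150647-4150896 on the minus strand for Akr1c18. Capitals mark the bases at which Akr1c13 and Akr1c12 differ from each other once aligned, and the Akr1c18 sequence has none marked.
Akr1c13: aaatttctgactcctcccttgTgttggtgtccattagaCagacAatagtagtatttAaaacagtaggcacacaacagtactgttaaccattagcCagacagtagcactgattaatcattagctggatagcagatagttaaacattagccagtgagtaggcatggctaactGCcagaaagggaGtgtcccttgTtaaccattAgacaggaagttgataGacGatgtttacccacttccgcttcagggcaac
Akr1c12: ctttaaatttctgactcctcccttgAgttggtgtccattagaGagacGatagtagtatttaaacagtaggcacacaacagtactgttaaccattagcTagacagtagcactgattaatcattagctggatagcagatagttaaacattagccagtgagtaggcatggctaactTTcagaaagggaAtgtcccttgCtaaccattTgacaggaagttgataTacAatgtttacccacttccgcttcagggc
Akr1c18: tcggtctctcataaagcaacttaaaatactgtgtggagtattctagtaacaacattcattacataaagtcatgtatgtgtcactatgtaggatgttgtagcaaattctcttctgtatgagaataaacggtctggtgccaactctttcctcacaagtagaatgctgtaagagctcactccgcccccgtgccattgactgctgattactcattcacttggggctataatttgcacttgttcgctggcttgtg
Over the whole 300-base windows, which run on 50 bases past the start site, Akr1c12 and Akr1c13 were identical at 284 of 297 aligned positions, or 95.6%. Akr1c18 was identical to Akr1c13 at 48.1% and to Akr1c12 at 46.8% of aligned positions. The antioxidant response element core TGACNNNGC, searched on both strands, was in none of the 6 members' windows and in 12.4% of all 32851 windows; Akr1b3 had no window in the table. No match says only that these letters are not in these windows.

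The likeness of Akr1c12 and Akr1c13 also bears on how they were counted. Their longest coding transcripts in GENCODE M21 (GRCm38) were 94.4% identical, and 54 of 451 stretches of 50 bases in the last 500 bases, or 12%, occurred in both genes. Reads from those stretches cannot be told apart, so the split between the 2 genes is uncertain. Akr1b3 shared 13.5% of such stretches with 3 other annotated genes (Gm12138, Gm6644 and Gm6736) and Akr1b8 shared 2.44% with Gm5649. Akr1c18, Akr1b7 and Akr1a1 shared none. Levels are given as CPM, the usual counts-per-million rate: the summed UMIs of a gene over the summed UMIs of all genes in the tumour cells of a library.

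The libraries held 16078095 to 22506737 UMIs in all. The gate took 108 tumour cells of KO anti-PD-1, 184 of KO IgG, 87 of WT anti-PD-1 and 86 of WT IgG, with 1448474 to 2572507 UMIs per group and median depths of 9735 to 13389 UMIs per cell. Of the 465 cells, 458 also fell into the cluster named tumour-like by epithelial markers, whose leading genes included the airway gene Scgb1a1; 25 cells were just inside the gate with 5 or 6 keratin UMIs, and 60 cells with 3 or 4 were just outside. Krt8 stood at 2533 to 3785 CPM, while Epcam had 0 UMIs in KO anti-PD-1. Asf1a had 8.08 CPM (13 UMIs) in KO anti-PD-1 and 11.3 CPM (29 UMIs) in KO IgG, against 33.8 CPM (49 UMIs) in WT anti-PD-1 and 35.4 CPM (58 UMIs) in WT IgG. The labels do not say which bases of Asf1a were removed, and a 3′ tag outside them would not report the deletion.

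Akr1c18 encodes the hydroxysteroid dehydrogenase that reduces and thereby inactivates progesterone, and is best known from the mouse ovary at the end of pregnancy. It was read at 42.9 CPM (69 UMIs) in KO anti-PD-1 and 78.5 CPM (202 UMIs) in KO IgG, against 0.690 CPM (1 UMI) in WT anti-PD-1 and 1.83 CPM (3 UMIs) in WT IgG. Both KO libraries lay above both WT libraries and their counting intervals did not overlap. The ratio of KO IgG to WT IgG was 42.8-fold (14.4 to 209), a log2 ratio of 5.42. That of KO anti-PD-1 to WT anti-PD-1 was 62.2-fold (10.8 to 2490.2), a log2 ratio of 5.96, and its upper bound is wide because the WT count was 1.

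**Figure D1:**
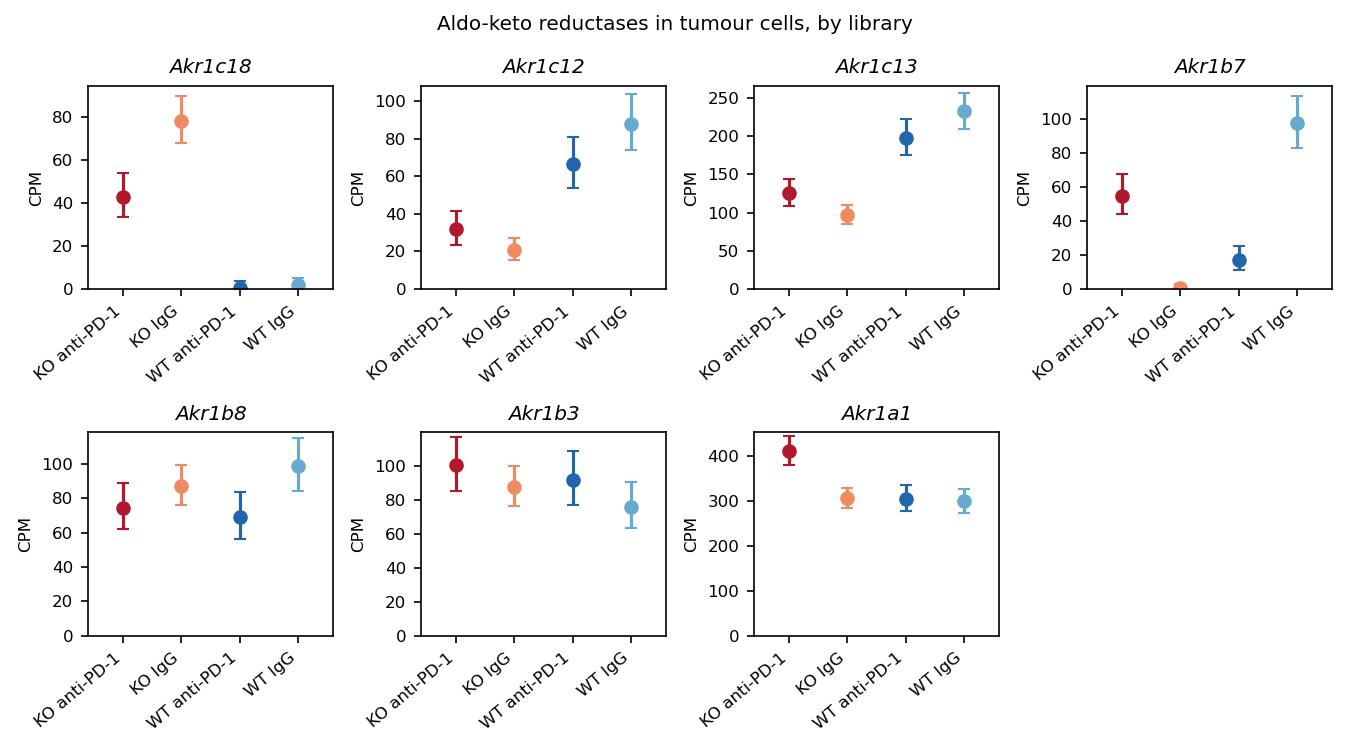
Level of each member in the tumour cells of each library, in CPM on linear axes that start at 0; points are the value of the 1 library per group and bars the exact Poisson 95% interval of its count. Akr1c18 lies at 42.9 and 78.5 CPM in the KO libraries and below 2 CPM in the WT libraries, while Akr1c12 and Akr1c13 are higher in the WT libraries.

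The Akr1c18 signal came from few cells. UMIs were found in 13 of 108 KO anti-PD-1 cells (12%) and 40 of 184 KO IgG cells (21.7%), against 1 of 87 WT anti-PD-1 cells (1.15%) and 2 of 86 WT IgG cells (2.33%). With each cell thinned to 1000 UMIs, and 2, 4, 1 and 2 shallower cells left out in that order, the exact mean share over all possible draws was 2.83% of 106 cells in KO anti-PD-1 and 5.84% of 180 cells in KO IgG, against 0.0344% of 86 cells in WT anti-PD-1 and 0.0864% of 84 cells in WT IgG. Single draws varied: 2 random draws gave 4 and 1 cells in KO anti-PD-1, 10 and 12 in KO IgG, and 0 in both WT libraries. A count of 0 there has exact upper limits of 4.20% in WT anti-PD-1 and 4.30% in WT IgG, so at this depth the KO anti-PD-1 share cannot be told from the WT shares. In T cells 3 of 5728 cells (0.0524%) had a UMI at median depths of 1544 to 2427 UMIs, and whether T cells use the gene themselves was not tested.

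A handful of cells set the Akr1c18 level. The highest cell held 44.9% of the UMIs in KO anti-PD-1 (31 of 69) and 25.2% in KO IgG (51 of 202). Without the top cell of each library the log2 ratio was 6.56 for KO IgG against WT IgG and at least 3.54 for KO anti-PD-1 against WT anti-PD-1, where WT was left with 0 UMIs and was set to the floor of 3 counts, so the direction did not rest on that cell. Fibroblast and pericyte markers summed to 473 CPM in KO anti-PD-1 and 14.4 CPM in KO IgG, against 276 CPM in WT anti-PD-1 and 95.3 CPM in WT IgG, with 4 to 6 of the 7 markers detected and Lum at 0 in every library. Their part in the result was not tested. Leaving out the 4, 0, 3 and 2 cells with at least 10 of these UMIs left Akr1c18 at 24.9 CPM (37 UMIs) in KO anti-PD-1 and 78.5 CPM in KO IgG, against 0.721 CPM in WT anti-PD-1 and 1.87 CPM in WT IgG. Among cells without any Ptprc UMI, Akr1c18 was at 61.1 CPM in KO anti-PD-1 and 46.1 CPM in KO IgG, against 1.09 CPM in WT anti-PD-1 and 0 UMIs in WT IgG.

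Akr1c12 and Akr1c13 encode close paralogues that act on hydroxysteroids and xenobiotic alcohols. They differed the other way from their neighbour Akr1c18. Akr1c12 was at 31.7 CPM (51 UMIs) in KO anti-PD-1 and 20.6 CPM (53 UMIs) in KO IgG, against 66.3 CPM (96 UMIs) in WT anti-PD-1 and 88.0 CPM (144 UMIs) in WT IgG. Akr1c13 was at 125 CPM (201 UMIs) in KO anti-PD-1 and 97.2 CPM (250 UMIs) in KO IgG, against 197 CPM (286 UMIs) in WT anti-PD-1 and 232 CPM (380 UMIs) in WT IgG. For both genes each KO library lay below each WT library. Akr1c12 was 4.27-fold lower in KO IgG than in WT IgG (3.10 to 5.97) and 2.09-fold lower in KO anti-PD-1 than in WT anti-PD-1 (1.47 to 3.0). Akr1c13 was 2.39-fold (2.03 to 2.81) and 1.58-fold (1.31 to 1.90) lower in the same comparisons.

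Akr1c19, the dehydrogenase gene that lies between the Akr1c13 and Akr1c12 genes and is not a member, ran in the same order. It was at 144 CPM in KO anti-PD-1 and 122 CPM in KO IgG, against 194 CPM in WT anti-PD-1 and 237 CPM in WT IgG, with log2 ratios of -0.43 under anti-PD-1 and -0.96 under IgG. No stretch of 50 bases at its 3′ end was shared with another gene. Akr1c14 had 2 to 5 UMIs per library, and Akr1c6, Akr1c20 and Akr1c21 had 0 in every library, so of this gene cluster only Akr1c18, Akr1c13, Akr1c19 and Akr1c12 were read at a level that allows a comparison.

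Akr1b7 encodes the aldose reductase-like protein first found in the mouse vas deferens, which is known to clear the aldehyde released by adrenal steroid synthesis and is also made in the intestine. It was at 54.7 CPM (88 UMIs) in KO anti-PD-1 and 0.777 CPM (2 UMIs) in KO IgG, against 17.3 CPM (25 UMIs) in WT anti-PD-1 and 97.2 CPM (159 UMIs) in WT IgG. The KO and WT libraries therefore interleaved, with KO IgG lowest and WT IgG highest. The gene was 125-fold lower in KO IgG than in WT IgG (34.0 to 1041) and 3.17-fold higher in KO anti-PD-1 than in WT anti-PD-1 (2.01 to 5.16).

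Its UMIs sat in 9 of 108 KO anti-PD-1 cells, 1 of 184 KO IgG cells, 9 of 87 WT anti-PD-1 cells and 17 of 86 WT IgG cells, and the top cell held 26.4% to 35.2% of them outside KO IgG. The summed level of 12 gastrointestinal markers, such as the intestinal galectin Lgals4, followed the same order. It was 701 CPM in KO anti-PD-1 and 75 CPM in KO IgG, against 421 CPM in WT anti-PD-1 and 1008 CPM in WT IgG, with 8 to 9 markers detected and the stomach genes Gkn3 and Tff2 at 0 in every library. Most of the sum was Lgals4 alone, at 596 CPM in KO anti-PD-1, 265 CPM in WT anti-PD-1 and 730 CPM in WT IgG. In KO IgG the highest marker was Cdx2 at 18.7 CPM. A single cell held 28.7% of the KO anti-PD-1 sum. In cells with at least 10 gastrointestinal UMIs, Akr1b7 stood at 305 CPM in 8 KO anti-PD-1 cells and had 0 UMIs in 3 KO IgG cells, a count with an exact upper limit of 29.8 CPM, against 33.3 CPM in 19 WT anti-PD-1 cells and 164 CPM in 21 WT IgG cells. In the remaining cells it was at 5.21 CPM (7 UMIs) in KO anti-PD-1 and 0.817 CPM (2 UMIs) in KO IgG, against 8.53 CPM (8 UMIs) in WT anti-PD-1 and 18.6 CPM (14 UMIs) in WT IgG.

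**Figure D2:**
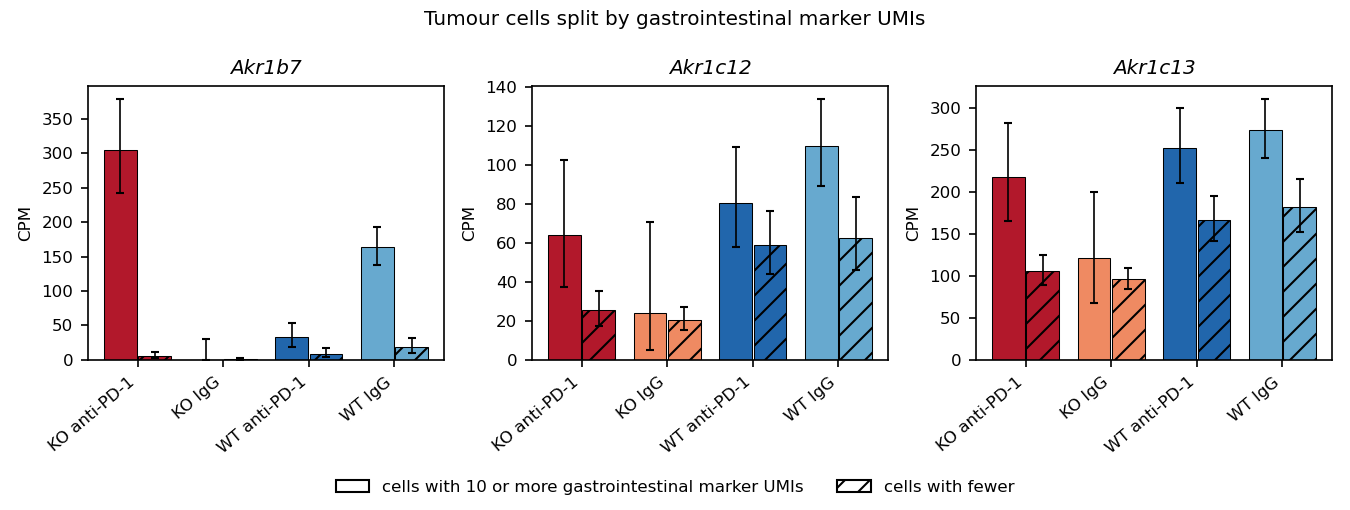
CPM of Akr1b7, Akr1c12 and Akr1c13 by library in tumour cells with at least 10 UMIs of the gastrointestinal marker list (plain bars) and with fewer (hatched bars); error bars are exact Poisson 95% intervals. Akr1b7 reaches 305 CPM in the 8 plain-bar cells of KO anti-PD-1 and stays below 19 CPM in every hatched bar, while Akr1c12 and Akr1c13 are present in both kinds of cell.

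The gastrointestinal-marker cells held 885300 of 1636326 tumour-cell UMIs in WT IgG but 123741 of 2572507 in KO IgG. Leaving them out therefore takes unlike parts of the 2 libraries. Without the gastrointestinal-marker cells the Akr1b7 log2 ratio was -4.51 for KO IgG against WT IgG. It was -0.71 for KO anti-PD-1 against WT anti-PD-1, which is the opposite sign to the 1.66 of all tumour cells. Leaving out cells with at least 10 lung or mesothelial marker UMIs did the same: Akr1b7 then had 9.78 CPM (10 UMIs) in KO anti-PD-1 against 21.1 CPM (25 UMIs) in WT anti-PD-1. The 14 cells left out of KO anti-PD-1 thus held most of its 88 Akr1b7 UMIs. Most of the mesothelial marker sum was Msln alone, at 202 of 210 CPM in KO anti-PD-1 and 188 of 257 CPM in WT anti-PD-1. Whether the cells left out were host lung cells or tumour cells was not tested. Without the gastrointestinal-marker cells Akr1c13 was at 96.0 CPM in KO IgG against 182 CPM in WT IgG, a log2 ratio of -0.93 that no longer passed 2-fold, and Akr1c12 still passed it at -1.62. Whether these cell mixtures account for the differences between libraries was not tested.

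Akr1b8, Akr1b3 and Akr1a1 stayed closer together across the libraries. Akr1b8, a reductase of retinal and lipid aldehydes known as a gene induced by fibroblast growth factor, was at 74.6 CPM in KO anti-PD-1 and 87.1 CPM in KO IgG, against 69.0 CPM in WT anti-PD-1 and 99.0 CPM in WT IgG. Akr1b3, the aldose reductase that turns glucose into sorbitol, was at 100.1 CPM in KO anti-PD-1 and 87.5 CPM in KO IgG, against 91.8 CPM in WT anti-PD-1 and 75.8 CPM in WT IgG. Akr1a1, an aldehyde reductase that in the mouse also serves ascorbate synthesis, was at 412 CPM in KO anti-PD-1 and 307 CPM in KO IgG, against 306 CPM in WT anti-PD-1 and 299 CPM in WT IgG. None of the 3 genes was 2-fold apart in any comparison. Under IgG the intervals of all 3 KO to WT log2 ratios included 0, at -0.19 (-0.48 to 0.12) for Akr1b8, 0.21 (-0.12 to 0.53) for Akr1b3 and 0.03 (-0.13 to 0.20) for Akr1a1. Under anti-PD-1 Akr1a1 was 1.35-fold higher in KO than in WT (1.19 to 1.52), beyond counting error, while Akr1b8 at 0.11 (-0.28 to 0.51) and Akr1b3 at 0.12 (-0.22 to 0.47) were not. The Akr1a1 difference was not confined to tumour cells. T cells of KO anti-PD-1 were at 188 CPM (170 to 208), against 149 CPM (138 to 161) in WT anti-PD-1. NK cells were at 157 against 160 CPM.

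Set beside all genes, the members' counts read as follows. All 7 members were among the 7416 genes with a mean of at least 10 CPM over the 4 libraries; Akr1c18 passed through its KO level, since both WT values were under 2 CPM. Between KO IgG and WT IgG, 1 of 7 members was at least 2-fold higher, where 3.86% of genes were, and 3 of 7 were at least 2-fold lower, where 5.73% of genes were. Between KO anti-PD-1 and WT anti-PD-1, 2 of 7 were higher against 3.33% of genes and 1 of 7 lower against 6.28%. In either direction this made 4 of 7 members under IgG, beside 9.59% of genes, and 3 of 7 under anti-PD-1, beside 9.61%. The members were chosen with these contrasts and the antibody comparisons below known, so nothing is read from any of these counts. The median log2 ratio was -0.19 over members and 0.05 over all genes under IgG, and 0.12 over members and -0.12 over all genes under anti-PD-1.

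**Figure D3:**
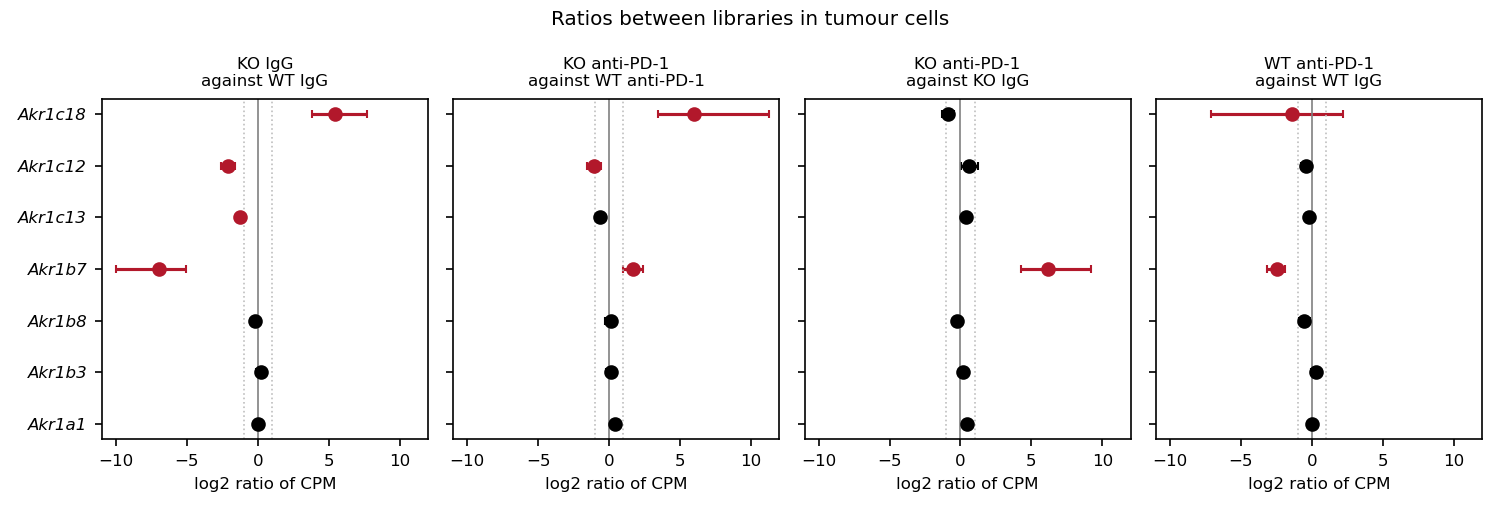
Log2 ratio of CPM between libraries for each member, with exact conditional 95% intervals, in 4 comparisons; dotted lines mark 2-fold and red points lie beyond it. Akr1c18 is at 5.42 and 5.96 in the KO to WT comparisons, Akr1b7 changes side between them, and Akr1b8, Akr1b3 and Akr1a1 lie between the dotted lines in every panel.

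Within each genotype the antibody arms were compared as well; these comparisons share libraries with those above. Among KO tumour cells Akr1b7 was 70.4-fold higher in anti-PD-1 than in IgG (18.9 to 590.4, on 88 and 2 UMIs), and Akr1c18 was 1.83-fold lower (1.39 to 2.44). The Akr1c18 direction depended on the gate, since among cells without Ptprc UMIs the log2 ratio was 0.41 in place of -0.87. Akr1a1 was 1.34-fold (1.21 to 1.49), Akr1c12 1.54-fold (1.03 to 2.31) and Akr1c13 1.29-fold (1.06 to 1.56) higher in KO anti-PD-1. Thus 1 of 7 members was past 2-fold upwards, where 3.9% of genes were, and 0 of 7 downwards, where 4.49% were (8.39% in either direction).

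Among WT tumour cells the anti-PD-1 library was mostly the lower one. Akr1b7 was 5.63-fold lower in WT anti-PD-1 than in WT IgG (3.68 to 8.96) and Akr1b8 1.43-fold lower (1.11 to 1.86). Akr1c12 was 1.33-fold (1.02 to 1.74) and Akr1c13 1.18-fold (1.01 to 1.38) lower. Akr1c18 had 1 UMI against 3, a log2 ratio of -1.41 with an interval of -7.12 to 2.23 that includes 0. With it, 0 of 7 members were past 2-fold upwards, where 2.59% of genes were, and 2 of 7 downwards, where 1.7% were (4.29% in either direction). Akr1b7, Akr1c12 and Akr1c13 therefore had opposite signs in the 2 genotypes, higher with anti-PD-1 in KO cells and lower in WT cells; that difference has no test with 1 library per group. For Akr1c12 and Akr1c13 the WT direction was lost without cells holding lung or mesothelial markers, at log2 ratios of 0.073 and 0.11, and for Akr1c12 also after thinning, at 1.55. The Akr1b8 direction was lost as well. Without lung or mesothelial marker cells it was at 76.0 CPM in WT anti-PD-1 against 73.6 CPM in WT IgG. Without gastrointestinal-marker cells it was at 65.1 against 63.9 CPM.

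Cell by cell, the members fell into those found in most tumour cells and those found in few. Akr1a1 had a UMI in 84.1% of the 465 tumour cells, Akr1b3 in 53.3%, Akr1c13 in 51.4% and Akr1b8 in 50.3%. Akr1c12 had one in 28.2%, Akr1c18 in 12% and Akr1b7 in 7.74%. Free RNA can give such UMIs in droplet data. The CPM in T and B cells, which may use these genes themselves, amounted to 42.6% to 47.3% of the tumour level of Akr1a1 and 119% to 133% of that of Akr1b3, so neither share is read as a share of expressing cells. The same level came to 4.52% to 14.9% of the Akr1c13 UMIs and 0.366% to 1.56% of the Akr1b8 UMIs. In B cells, at median depths of 1041 to 1614 UMIs, 0.902% of cells had an Akr1c13 UMI and 0.0751% an Akr1b8 UMI. Cells with a UMI were deeper than cells without: for Akr1c18 the median depths were 13601 against 10028.5 UMIs in KO IgG, and for Akr1b7 22735 against 10884 UMIs in WT IgG. No tumour cell of any library had UMIs of both Akr1c18 and Akr1b7. Each of these genes was found in few cells, however, and Pearson's r between them was -0.03 over the 465 cells. Mutual exclusion is therefore not read from this. Akr1c18 UMIs occurred beside Akr1c13 UMIs in 10 KO anti-PD-1 cells and 25 KO IgG cells, and beside Akr1c12 UMIs in 4 and 8 cells.

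**Figure D4:**
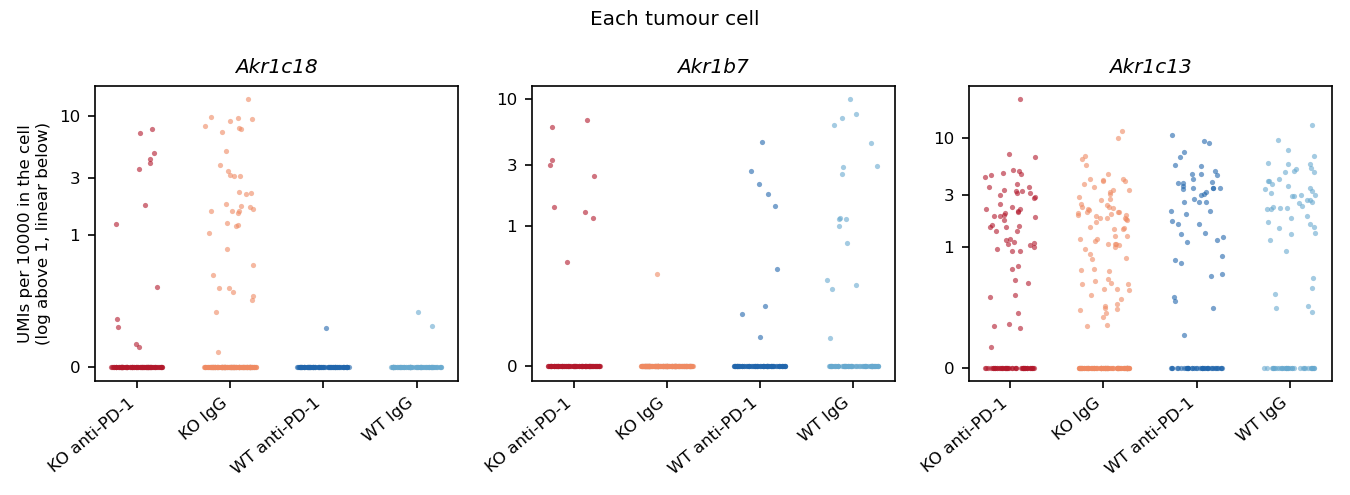
UMIs per 10000 in each tumour cell (points, spread sideways at random) for Akr1c18, Akr1b7 and Akr1c13, by library; the axis is logarithmic above 1 and linear below. Most cells lie at 0 for Akr1c18 and Akr1b7, with 13 and 40 cells above 0 for Akr1c18 in the KO libraries, while about as many cells lie above 0 as at 0 for Akr1c13.

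Across cells Akr1c12 and Akr1c13 were each other's closest gene, and Akr1c19 came next for Akr1c13. Over 465 tumour cells and 8039 genes seen in at least 10% of them, Pearson's r of scaled log values was 0.32 between Akr1c12 and Akr1c13 and 0.30 between Akr1c13 and Akr1c19. Within libraries the first was 0.13 in KO anti-PD-1 and 0.22 in KO IgG, against 0.42 in WT anti-PD-1 and 0.52 in WT IgG, and the second was 0.35 and 0.07 in the KO libraries, against 0.45 and 0.52 in the WT libraries. Tspan8, a tetraspanin of epithelial membranes, was among the 5 closest genes of both Akr1c12 (0.25) and Akr1c13 (0.29). The 5 closest genes of Akr1a1 were led by Asah1, the lysosomal acid ceramidase, at 0.35, and those of Akr1b3 by Eif5a, a translation factor, at 0.31. For Akr1b8 the closest gene was Akr1a1 at 0.25, and for Akr1c18 it was Gkap1 at 0.25, although within libraries that value was -0.08 in KO anti-PD-1 and 0.47 in KO IgG. Akr1b7 was seen in too few cells to be included. These coefficients are weak, describe cells that share 4 libraries and their depths, and for Akr1c12 and Akr1c13 include any reads their common stretches exchange.

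In the other cell types of the lung the members divided again. Levels were compared in 8 classes with at least 50 cells in every library: tumour cells, monocytes and macrophages, conventional dendritic cells, neutrophils, T cells, NK cells, B cells and plasma cells. Smaller classes were left out, among them alveolar macrophages and the part of the tumour-like cluster outside the gate. That part held 294 Akr1c18 UMIs in KO IgG, 287 of them in 1 cell. It also held 48 Akr1c12 UMIs in WT IgG and 38 Akr1b8 UMIs in KO anti-PD-1. Statements on other classes cover the 8 only. Akr1b8, Akr1c12 and Akr1c13 were highest in tumour cells, with library ranges above those of every other class. Akr1b8 ranged over 69.0 to 99.0 CPM in tumour cells, while no other class passed 4.08 CPM. Akr1c12 ranged over 20.6 to 88.0 CPM in tumour cells against 1.11 to 2.01 CPM in T cells, and no other class passed 4.63 CPM. Akr1b7 was also highest in tumour cells by its median, although the range of 0.777 to 97.2 CPM overlapped the 0 to 2.33 CPM of neutrophils because of its low KO IgG value. Akr1c18, at 0.690 to 78.5 CPM in tumour cells, overlapped the other classes, which reached 3.85 CPM in NK cells, because of its low WT values.

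Akr1c13 showed a second tier below the 97.2 to 232 CPM of tumour cells. It was at 13.9 to 23.4 CPM in NK cells, 9.79 to 16.7 CPM in T cells and 10.8 to 15.9 CPM in monocytes and macrophages, ranges that overlapped each other. It was at 2.90 to 6.35 CPM in B cells, 3.10 to 6.22 CPM in neutrophils, 1.36 to 3.6 CPM in conventional dendritic cells and 0 to 2.71 CPM in plasma cells. The ranges of these 2 sets of classes did not overlap, and 53 of 1244 NK cells (4.26%) had a UMI against 12 of 1331 B cells (0.902%).

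Akr1b3 and Akr1a1 were not particular to tumour cells. Akr1b3 was at 106 to 123 CPM in T cells and 75.8 to 100.1 CPM in tumour cells, with NK and B cells overlapping both. Neutrophils stood apart at 8.53 to 27.6 CPM, below the 56.2 to 65.9 CPM of plasma cells, the next class up. Among the classes compared, Akr1a1 was highest in monocytes and macrophages at 622 to 763 CPM. Conventional dendritic cells at 341 to 359 CPM and tumour cells at 299 to 412 CPM overlapped each other. The 5 remaining classes compared lay between 68.0 and 188 CPM. Alveolar macrophages were left out of the comparison, with 23 to 46 cells per library. They held 624 to 778 CPM of Akr1a1, which overlapped monocytes and macrophages. Their Akr1b3 level was 219 to 238 CPM, above the range of T cells.

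**Figure D5:**
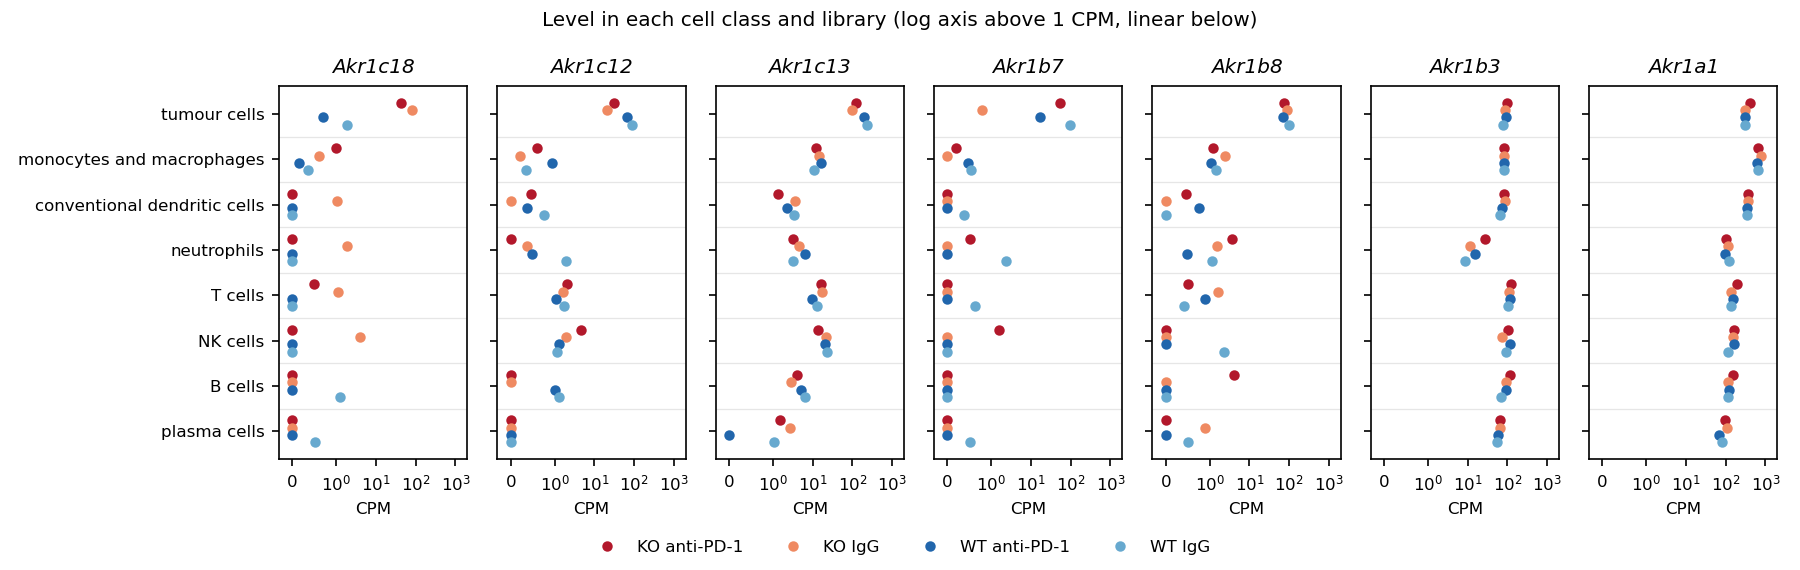
CPM of each member in 8 cell classes (rows), 1 point per library; the axis is logarithmic above 1 CPM and linear below. In the classes shown, Akr1c18, Akr1c12, Akr1b7 and Akr1b8 lie near 0 outside tumour cells. Among these classes Akr1b3 is low in neutrophils alone at 8.53 to 27.6 CPM, and Akr1a1 is highest in monocytes and macrophages at 622 to 763 CPM. Alveolar macrophages and the tumour-like cluster outside the gate are not shown.

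Genes that work with these enzymes were read from lists chosen with earlier results of these data known. Of 13 other aldo-keto reductase genes, 5 passed the 10 CPM filter (Akr1b10, Akr1c19, Akr1e1, Akr7a5 and Kcnab1), and none was 2-fold apart between KO IgG and WT IgG. Akr1b10, which lies beside Akr1b7 and has a transcript 77.8% identical to it, was at 8.08 CPM in KO anti-PD-1 and 8.94 CPM in KO IgG, against 18.6 CPM in WT anti-PD-1 and 15.3 CPM in WT IgG. It was 2.31-fold lower in KO anti-PD-1 than in WT anti-PD-1 (1.15 to 4.87), the opposite side to Akr1b7.

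Of 10 genes for Nrf2 and its regulators, all passed the filter and 1 was 2-fold lower in KO IgG than in WT IgG, Mafk, a small Maf partner, at 7.77 against 16.5 CPM. Under anti-PD-1 Mafk was at 18.0 CPM in KO against 12.4 CPM in WT, and 1 regulator was 2-fold higher, the small Maf gene Maff, at 101 against 42.8 CPM. Nfe2l2, which encodes Nrf2, was at 114 CPM in KO IgG against 91.7 CPM in WT IgG, and Keap1, its inhibitor, at 38.9 against 41.6 CPM. Of 23 Nrf2 targets, 18 passed. Of these 1 was 2-fold higher in KO IgG and 3 were lower, beside 3.86% and 5.73% of all genes. The list median was -0.09 beside 0.05 over all genes. Gsta1, a glutathione transferase, was 9.18-fold lower in KO IgG than in WT IgG (16.7 against 153 CPM) and 2.49-fold higher in KO anti-PD-1 than in WT anti-PD-1 (280.5 against 113 CPM), the same pair of directions as Akr1b7. Gsta4 was 3.32-fold and Osgin1 4.80-fold lower in KO IgG, while the drug exporter Abcc1 was 2.58-fold higher. None of these 3 was past 2-fold in KO anti-PD-1 against WT anti-PD-1, where Gsta4 was at 300.4 against 375 CPM, Osgin1 at 16.2 against 19.3 CPM and Abcc1 at 15.5 against 20.0 CPM. Nqo1, the textbook Nrf2 target, had 1 UMI in all tumour cells together.

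The polyol pathway runs from glucose through Akr1b3 to sorbitol and on to fructose. The list read for it held 8 other genes, among them aldolases and sugar transporters that also act outside this pathway. Of these 7 passed, and 4 were at least 2-fold lower in KO IgG than in WT IgG, beside 5.73% of all genes. The list median was -1.05 beside 0.05 over all genes. Sord, which oxidises sorbitol, was at 4.66 against 15.3 CPM, Khk, the fructose kinase, at 26.0 against 56.8 CPM, and the aldolase Aldoa at 582 against 1201 CPM. Under anti-PD-1 the list median was 0.19, and Sord, Khk and Aldoa were not past 2-fold. Akr1b3 itself did not follow this list in either comparison, at log2 ratios of 0.21 and 0.12.

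Among 16 of 26 steroid and prostaglandin genes that passed, 1 was 2-fold higher and 1 lower in KO IgG than in WT IgG, beside 3.86% and 5.73% of all genes. Ptgds, a prostaglandin D synthase, was 5.77-fold higher (45.9 against 7.94 CPM), and Hpgd, which inactivates prostaglandins, was 14.1-fold lower on 3 against 27 UMIs (4.35 to 72.9). Neither was 2-fold apart in KO anti-PD-1 against WT anti-PD-1, with Ptgds at 18.0 against 14.5 CPM and Hpgd at 23.0 against 25.5 CPM. There none of the list was higher and 1 was lower, the glucocorticoid receptor gene Nr3c1, at 16.8 against 38 CPM. Pgr, the progesterone receptor, had 0 UMIs in tumour cells of every library, and Cyp11a1, the first enzyme of steroid synthesis, had 1. Of 12 genes that supply NADPH, all passed and none was 2-fold apart in KO IgG against WT IgG. Of 23 aldehyde-metabolising genes 12 passed, none was higher and 2 were lower, the aldehyde dehydrogenases Aldh3a2 (5.83 against 13.4 CPM) and Aldh3b1 (14.4 against 30.6 CPM), beside 5.73% of all genes lower. Under anti-PD-1 none of the 12 was past 2-fold, with Aldh3a2 at 18.7 CPM in KO against 19.3 CPM in WT and Aldh3b1 at 28.6 against 21.4 CPM.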

How the data were processed

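Single-cell 3′ libraries (10x Genomics v2 chemistry, per the labels) of live cells sorted from digested whole lungs were read as the UMI counts per gene and cell that the authors deposited. Cell Ranger 3.0.0 wrote these counts, per the file headers. A human build, hg19, stands in the submitters' processing notes, whereas the gene identifiers are from the mouse, so the build behind the counts is not established. The deposited barcode list covers 1 library only, and barcodes shared between libraries could not be counted.

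Cells with under 200 genes, over 10% mitochondrial UMIs or a Scrublet score above 0.25 (1.29% to 1.71% of cells) were removed. Clustering for the other cell types used scanpy 1.11.5 with 2000 variable genes, 30 components, 15 neighbours and Leiden resolution 1, and clusters were named from marker lists. Members, gene lists and markers were chosen with earlier results of these data known. UMIs were summed over the cells of a class in each library. With 1 library per group no test was made: levels have exact Poisson, shares exact Clopper-Pearson and ratios exact conditional intervals, computed with scipy 1.17.1, at 95%. A gene was counted as apart at 2-fold with a mean of at least 10 CPM over the 4 libraries, and a count of 0 was set against a floor of 3 counts. The ratios and their intervals were tested on simulated Poisson counts with known folds. Those counts lacked the clumping of UMIs in few cells, and the filters, gate and clustering were not part of that test.

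Of each pathway list the up to 4 genes with the largest log2 ratio in KO IgG against WT IgG were named, and of each member the 5 genes with the highest correlation; in those correlations each library was centred on its own mean. Akr1e1, Akr1c6, Akr1c14, Akr1c20, Akr1c21, Nfe2l2, Keap1, Maff, Nqo1, Nr3c1, Pgr and Cyp11a1 fall outside that rule and were named after their values were seen. A gene of the polyol list that the rule names is not reported here. Transcript identity took the place of a planned protein comparison. The alternatives changed the gate, the cell filters, the scaling, the thresholds and free RNA; leaving out cells with fibroblast or gastrointestinal markers was chosen after seeing the data.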

Additional observations from a re-analysis of the deposited data

Results flagged for a closer look

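Akr1b7 had opposite directions in the KO to WT comparisons of the 2 antibody arms, with log2 ratios of 1.66 (1.01 to 2.37) for KO anti-PD-1 against WT anti-PD-1 and -6.97 (-10.02 to -5.09) for KO IgG against WT IgG. It also had opposite directions in the antibody comparisons of the 2 genotypes, at 6.14 (4.24 to 9.21) for KO anti-PD-1 against KO IgG and -2.49 (-3.16 to -1.88) for WT anti-PD-1 against WT IgG. Akr1c12 showed 0.62 (0.04 to 1.20) for KO anti-PD-1 against KO IgG and -0.41 (-0.80 to -0.03) for WT anti-PD-1 against WT IgG. Akr1c13 showed 0.36 (0.09 to 0.64) for KO anti-PD-1 against KO IgG and -0.23 (-0.46 to -0.01) for WT anti-PD-1 against WT IgG. Without cells holding lung or mesothelial markers the WT anti-PD-1 against WT IgG ratio was 0.073 for Akr1c12 and 0.11 for Akr1c13, so the opposite directions were lost there. With 1 library per group these differences between effects were not tested.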

How the results depend on the processing

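No paired analysis was possible because each group has 1 library. Of 439 values over 28 results and 16 alternatives, 393 moved by less than counting error and 43 by more. The other 3 were set apart because the sign changed from a ratio past 2-fold, whether within counting error or not. The sign changed in 29: in 14 by less than counting error, in 12 by more where the reported ratio was under 2-fold (such as Akr1c18 in KO anti-PD-1 against KO IgG, at 0.41 among cells without Ptprc UMIs), and in 3 where it was past 2-fold. Those 3 were Akr1b7 in KO anti-PD-1 against WT anti-PD-1, at -1.11 without lung or mesothelial marker cells and -0.71 without gastrointestinal marker cells, and Akr1c18 in WT anti-PD-1 against WT IgG, at 0.082 with no cell filter (3 UMIs each); the cause was not tested. As a mean over cells, KO anti-PD-1 against WT anti-PD-1 gave 0.55 for Akr1b7, -0.50 for Akr1c12 and -0.34 for Akr1c13. Without gastrointestinal marker cells, KO IgG against WT IgG gave -4.51 for Akr1b7, -1.62 for Akr1c12 and -0.93 for Akr1c13. Thinning to 1000 UMIs per cell, in 1 random draw, left few UMIs: KO IgG against WT IgG gave 1.40 for Akr1c18 (17 and 0 UMIs) and -2.68 for Akr1b7 (0 and 9 UMIs), both set against the floor, and -0.10 for Akr1c12 (4 and 2 UMIs), while Akr1b7 gave 0.44 for KO anti-PD-1 against WT anti-PD-1 (5 and 0 UMIs), set against the floor. Akr1c18 stayed at least 2-fold higher in KO than in WT in all 16 alternatives under IgG (1.40 to 6.56) and in the 15 that gave a value under anti-PD-1 (3.54, a bound, to 6.62). Akr1c12 stayed at least 2-fold lower under anti-PD-1 in 11 of 16. Subtracting free RNA gave no value for Akr1b3.

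Counts of genes at least 2-fold apart moved with the thresholds, given for KO IgG against WT IgG, KO anti-PD-1 against WT anti-PD-1, WT anti-PD-1 against WT IgG and KO anti-PD-1 against KO IgG in that order. They were 711, 713, 318 and 622 as reported, 1159, 1214, 666 and 1038 with a filter at 5 CPM, 141, 121, 35 and 112 at 50 CPM, 4756, 4727, 3783 and 4749 with no filter, 2026, 2202, 1236 and 1934 at 1.5-fold, and 3052, 3109, 3142 and 2604 after thinning. The count for WT anti-PD-1 against WT IgG was also 509 among cells without Ptprc UMIs, 686 without gastrointestinal marker cells and 864 as a mean over cells. Median-of-ratios scaling shifted every log2 ratio of KO anti-PD-1 against KO IgG by 0.11. The 86 to 184 tumour cells per library and 1 to 3 UMIs of Akr1c18 in WT cells limit how closely its ratios are known.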

Other observations

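Part of the Akr1c18 signal lay outside the tumour gate. Over all kept cells the gene had 81 UMIs in KO anti-PD-1 and 510 UMIs in KO IgG, against 2 UMIs in WT anti-PD-1 and 25 UMIs in WT IgG, and tumour cells held 85.2% of them in KO anti-PD-1 and 39.6% in KO IgG, against 50% in WT anti-PD-1 and 12% in WT IgG. A single KO IgG cell held 287 Akr1c18 UMIs. This cell had 14942 UMIs and 3785 genes, with 0 UMIs of Krt8 and Krt18 and 0 of Ptprc. It also held 954 UMIs of Spp1 (osteopontin), 295 of Mgp (matrix Gla protein), 83 of Lpl (lipoprotein lipase), 78 of Sparc, 73 of Col3a1 and 60 of Col1a1. Vim (vimentin) went the other way, with 2 UMIs or 134 CPM in this cell, against 1413 CPM in tumour cells. In WT IgG 17 of the 25 Akr1c18 UMIs sat in 1 cell outside the gate. These genes and cells were chosen after their values were seen. With the tumour-like cluster in place of the gate, Akr1c18 stood at 34.5 CPM in KO anti-PD-1 and 167 CPM in KO IgG, against 0.503 CPM in WT anti-PD-1 and 10.3 CPM in WT IgG.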
